A study of Mus musculus with 16 samples.

Results

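Mouse embryonic stem cells that had grown for 24 hours with PD173074, an inhibitor of FGF receptors, were compared across all measured genes with cells that received the vehicle DMSO. The comparison rests on 4 of the 16 arrays of the series, 2 labelled 0h and 2 labelled DMSO, and each 0h array was paired with the DMSO array of the same replicate number. Cells of the 0h group had PD173074 at 250 nM for 24 hours and no 4-hydroxytamoxifen (4OHT). Cells of the DMSO group had neither the inhibitor nor 4OHT, and the labels do not give the length of the vehicle treatment. The treatment text is the same for all samples and names the inhibitor, so the agent given for each sample was used to place it. Cells of both groups were of the E14tg2a line, grown on gelatin in serum with LIF, a cytokine that maintains self-renewal. Per the series' design text these cells hold a c-Raf fusion protein that tamoxifen switches on, and it was present but not induced in both groups. The other 12 arrays are 6 times of 4OHT stimulation with the inhibitor present, and they enter here through the estimate of the spread. No label states that replicates are independent cultures, so a p-value here reflects how far these samples scatter, and that scatter could be technical.

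FGF receptors are tyrosine kinases at the cell surface. On binding FGF they pass a signal through RAS, RAF and MEK to the kinase ERK, which enters the nucleus and changes transcription. The pathway restrains itself: ERK activity induces Sprouty and Spred proteins, which act on the receptor and RAS steps, and dual-specificity phosphatases, which take phosphate off ERK. ETS transcription factors of the Etv1, Etv4 and Etv5 group are well known as genes that follow FGF signalling. Embryonic stem cells make their own Fgf4, and this signal is known to move them out of naive pluripotency, the state of the early epiblast, towards the formative state that precedes germ layer formation.

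Signals are given as log2 of the processed intensity minus the 75th percentile of the same array, so 0 is a bright spot and negative values are dimmer. Every change is 0h minus DMSO on this log2 scale, with its standard error (SE), and n = 2 arrays per group. The 4 arrays had between 56.5 and 67.2% of their spots well above background, and the arrays of replicate 1 and of replicate 2 lay on separate slides. Levels of the 2 replicates correlated over genes at 0.988 in 0h and 0.987 in DMSO. All 10 markers of embryonic stem cells, among them Pou5f1, Sox2, Nanog and Zfp42, were well above background on all 4 arrays. Array identity was taken from the headings of the deposited value table, which differ from the record of the scanner files for 8 of the 16 arrays. With the scanner files' record only 6 genes were called between 0h and DMSO, all of them higher, and 387 had an unadjusted limma p below 0.05, so the results rest on this choice. On the slide of replicate 1, 38 genes differed by more than 3 on the log2 scale while differing by less than 1 on the other slide, and 2 of them were called. The reverse held for 3 genes. The widest of these was Brinp1, at 8.15 on the 0h array of replicate 1 against -3.23, -3.57 and -3.40 on the 0h array of replicate 2 and the DMSO arrays. Brinp1 was not called.

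Of 15660 genes tested, 2344 were called at an adjusted p below 0.05 (limma with the replicate number, which is also the slide, as a block). This is a background of 15% of tested genes, with 1307 higher (8.35%) and 1037 lower (6.62%) at 0h. The percentages of list members called that are given below are to be read against these shares. The median change over all tested genes was -0.01, with 0.02 on the slide of replicate 1 and -0.03 on that of replicate 2. Most called changes were small. The count of genes called with a change of at least 2-fold was 464 higher and 283 lower, and at least 4-fold it was 107 higher and 50 lower, while 788 called genes changed by less than 1.5-fold. All 2344 moved in the same direction on both slides, which selection by this test favours. The 0h arrays lay wholly above or below the DMSO arrays for 48.3% of all tested genes (24.8% above, 23.5% below), so that a lack of overlap between arrays is common. Without the block 548 genes were called (3.5%), 348 higher (2.22%) and 200 lower (1.28%), and all 548 were among the 2344. With the arrays centred on their medians the split was 1487 higher and 685 lower.

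Single arrays had a large part in the number of calls. It was 708 without 0h replicate 1, 1287 without 0h replicate 2, 1321 without DMSO replicate 1 and 999 without DMSO replicate 2. A core of 543 genes was called in all 4 of these fits. Where a gene is said below to have kept its call with each array left out, it belongs to this core.

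**Figure D1:**
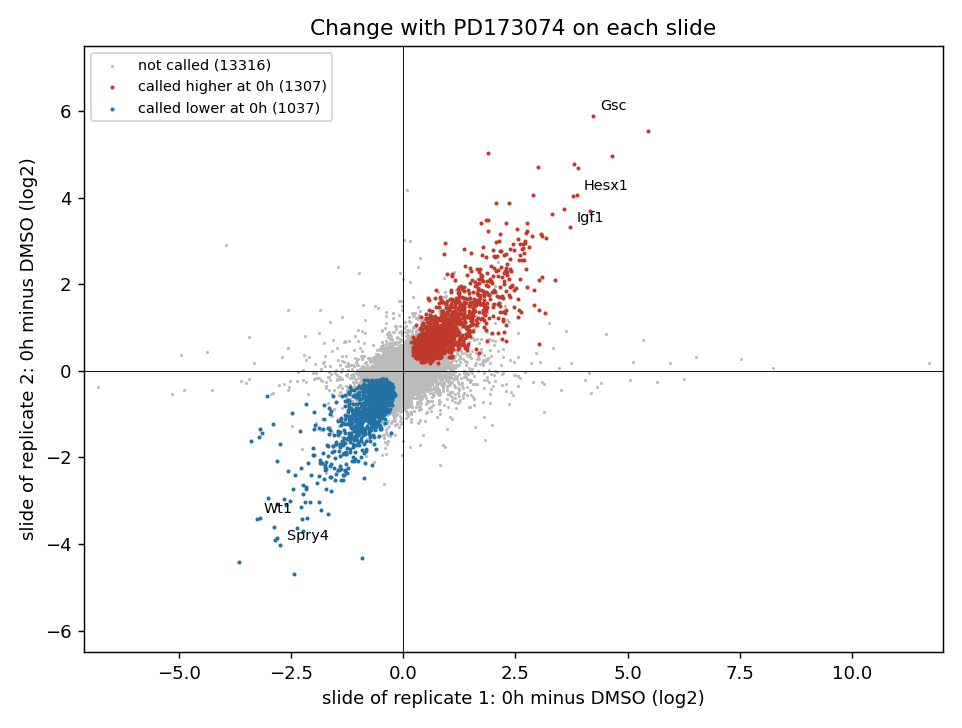
Change of each tested gene on the slide of replicate 1 (horizontal axis, 0h minus DMSO, log2) and on the slide of replicate 2 (vertical axis, same scale). Red points are the 1307 genes called higher and blue points the 1037 called lower at 0h, all with the same sign on both slides. The grey points along the horizontal axis are genes that differed only on the slide of replicate 1.

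Feedback inhibitors of the pathway were lower with the inhibitor. Of 6 tested Sprouty and Spred genes 5 fell and none rose, against 6.62% of all tested genes lower, and the median change was -1.47 (-1.16 and -1.77 on the slides of replicates 1 and 2). Spry4 had levels of -2.49 and -2.96 on the 0h arrays and 0.27 and 1.07 on the DMSO arrays. It fell by 3.39 ± 0.36 (adjusted p = 0.00076), or 10.5-fold. Spry2 stood at 0.10 and -0.42 in 0h, against 1.59 and 1.27 in DMSO, and fell by 1.59 ± 0.15. For both genes the 2 groups were separated by more than the gap between replicates.

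Spred1 had levels of 1.05 and 0.05 in 0h and of 1.88 and 1.91 in DMSO, a fall of 1.34 ± 0.21. Spry1 had levels of 2.13 and 1.13 in 0h and of 2.66 and 2.63 in DMSO, a fall of 1.02 ± 0.22. In both genes the DMSO arrays nearly coincided, while the 0h array of replicate 2 lay well below that of replicate 1. Spred3 was not well above background on either 0h array and was at least 2.47-fold lower than in DMSO (adjusted p = 0.00058). Spred2 had a change of -0.39 ± 0.12 and was not called (adjusted p = 0.061), and Spry3 was not above background in any group. Spry4 and Spred3 were also called without the block, whereas Spry2, Spred1 and Spry1 were not (adjusted p = 0.071, 0.19 and 0.25). Spry2, Spry4, Spred1 and Spred3 were called whichever of the 4 arrays was left out. Spry1 was not (adjusted p up to 0.106).

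The phosphatases split by member. Of 11 tested dual-specificity phosphatases that act on ERK and related kinases, 3 fell (27.3%) and 1 rose (9.09%), with a list median of -0.37. Of all tested genes 6.62% fell and 8.35% rose. Dusp4, a nuclear phosphatase, had levels of -1.40 and -2.66 in 0h and of 0.88 and 0.48 in DMSO, and fell by 2.71 ± 0.20 (adjusted p = 0.00016). Dusp6, the cytoplasmic phosphatase selective for ERK, stood at 2.66 and 1.44 in 0h, against 3.99 and 3.85 in DMSO, and fell by 1.87 ± 0.24. Dusp2 fell by 1.65 ± 0.27. Dusp16, known to act mainly on the stress kinases JNK and p38, rose by 1.21 ± 0.13, with 2.41 and 2.12 in 0h and 1.26 and 0.86 in DMSO. No 0h array overlapped a DMSO array for any of these 4 genes, which also holds for 48.3% of all tested genes. All 4 kept their call with each array left out. Without the block Dusp2 and Dusp16 were called, while Dusp4 (adjusted p = 0.068) and Dusp6 (adjusted p = 0.13) were not. Dusp5 was dim in both groups and had a change of -0.61 ± 0.47, and Dusp1 had -0.27, neither called.

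Among 13 tested ETS factors 2 fell (15.4%) and 1 rose (7.69%), against 6.62% and 8.35% of all tested genes. The remaining 10 lay between -0.51 and 0.21. Etv4 stood at 2.56 and 1.04 in 0h, against 4.93 and 4.68 in DMSO, and fell by 3.01 ± 0.28 (adjusted p = 0.00044), or 8.03-fold. Without the block its adjusted p was 0.057. Etv1 had levels of 0.80 and 0.11 in 0h and of 2.57 and 2.61 in DMSO, and fell by 2.13 ± 0.18. Etv5, their close relative, was among the brighter probes of the array at 6.82 and 6.16 in 0h and at 7.00 and 6.69 in DMSO, and its change of -0.35 ± 0.12 was not called (adjusted p = 0.086). The test of the difference between these relatives was not made. Ets2, another ETS factor, rose by 1.04 ± 0.13. Etv1, Etv4 and Ets2 kept their call with each array left out.

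**Figure D2:**
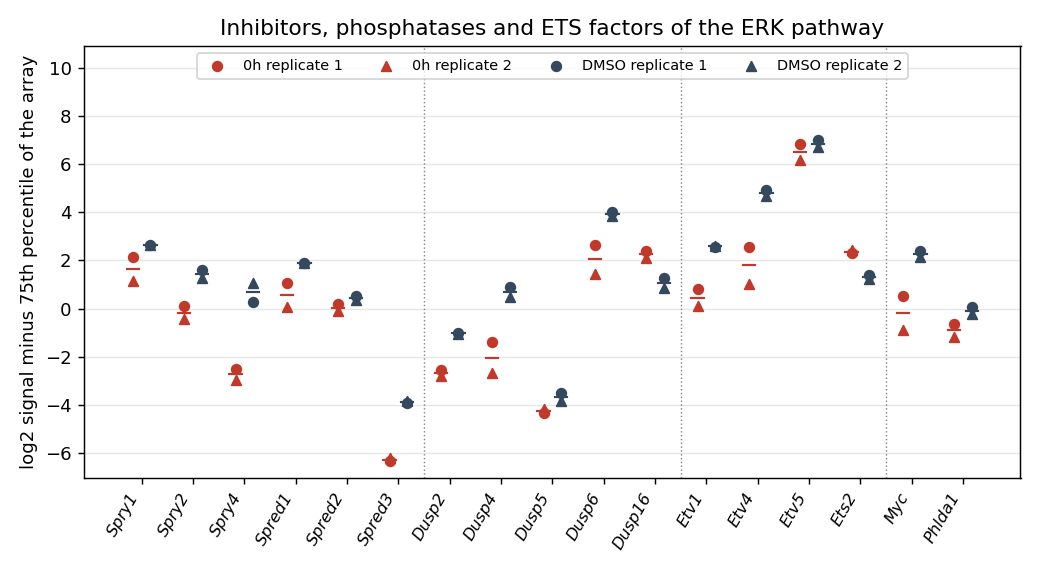
Level of each gene on each array (vertical axis, log2 signal minus the array's 75th percentile), with 0h in red to the left of DMSO in dark blue, replicate 1 as circles, replicate 2 as triangles and the group mean as a bar. Dotted lines part Sprouty and Spred genes, phosphatases, ETS factors and other targets. Spry4, Dusp4, Etv1 and Etv4 stand apart between the groups, while Spred2 and Etv5 lie close together.

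Other genes that follow ERK in many cells were mixed. Of 15 tested, 1 fell and 1 rose (6.67% each), near the shares of 6.62% and 8.35% over all tested genes. The growth regulator Myc had levels of 0.51 and -0.90 in 0h and of 2.40 and 2.12 in DMSO, and fell by 2.46 ± 0.27 (adjusted p = 0.00093, 0.054 without the block). It kept its call with each array left out. Gadd45b, a stress response gene, rose by 1.41 ± 0.26. Phlda1 had a change of -0.80 ± 0.32 and Ccnd1, the cyclin that carries growth signals to the cell cycle, of -0.56 ± 0.32, neither called.

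Immediate early genes, which ERK induces within minutes of stimulation, did not share the change of the feedback genes as a list. Of 29 tested, 2 rose and 2 fell (6.9% each), near the shares of 8.35% and 6.62% over all tested genes. Each changed by less than 1 on the log2 scale, and none was called without the block. The median change was 0.16 (0.35 and -0.12 on the slides of replicates 1 and 2), and it turned below 0 with normexp background correction. Egr1 was at 1.25 and 0.74 in 0h and at 0.52 and 0.46 in DMSO, a change of 0.50 ± 0.28 that was not called. Fos was dim in both groups, with a change of 0.06 ± 0.32 whose sign turned when single arrays were left out. The 4 called members were Ccn1 (0.60 ± 0.16) and Btg1 (0.53 ± 0.13), which rose, and Trib1 (-0.75 ± 0.14) and Mcl1 (-0.37 ± 0.08), which fell.

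Most components of the signalling cascade were not called, as holds for all tested genes, of which 15% were called. Of 28 tested genes of the RAS, RAF, MEK and ERK cascade, 3 fell (10.7%) and none rose. The shares of all tested genes were 6.62% and 8.35%. The median change of the list was -0.03. Among the 3, 1 was called without the block and 1 kept its call with each array left out. Rps6ka2, a kinase downstream of ERK, fell by 0.78 ± 0.13 and Braf by 0.57 ± 0.13, and neither was called without the block (adjusted p = 0.12 and 0.44). The high value listed for Map2k2 (1.77) came from 1 array, with 3.80 and 3.67 in 0h against 0.32 and 3.60 in DMSO, and was not called.

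Ligands and receptors of the FGF family changed in a few members. Fgf4, the main ligand of these cells, was at 6.68 and 6.74 in 0h and at 6.50 and 6.14 in DMSO, with a change of 0.39 ± 0.35 that was not called. Of 16 tested ligands 2 fell (12.5%) and none rose, and 6 more were not above background in any group. Fgf5, a marker of the post-implantation epiblast, fell by 1.19 ± 0.33, with -3.38 and -5.10 in 0h and -2.63 and -3.47 in DMSO, so the groups overlapped. Fgf21, the other call, was not above background on any of the 4 arrays. Of 23 tested receptors, co-receptors and genes of heparan sulfate, the sugar chain that helps FGF bind, 3 rose (13%) and 4 fell (17.4%). None of these calls was made without the block. Outside this list, the heparan sulfate sulfotransferase Hs6st2 fell by 2.85 ± 0.20 (adjusted p = 0.00013) and was also called without the block. Fgfr1 had a change of 0.65 ± 0.22 (adjusted p = 0.078), Fgfr2 rose by 0.49 ± 0.09 and Fgfr4 fell by 0.91 ± 0.16. Among the heparan sulfate genes of this list, Hs6st1, a sulfotransferase, rose by 1.13 ± 0.31. Ext1, which builds the chain, fell by 1.08 ± 0.11, Sulf1, which trims it, by 0.90 ± 0.24 and the core protein gene Sdc1 by 0.78 ± 0.15. Ext1 alone among them kept its call with each array left out.

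Promoter sequences of the falling feedback genes are shown because these genes moved together. They come from RefSeq on the build GRCm38.p6, and 7 of 11 genes had an entry. The 11 are Myc and the 10 called Sprouty, Spred, phosphatase and ETS genes that are lower at 0h. The 80 bases before the gene start are printed 5′ to 3′ on the gene's strand, with the letters of an ETS core (CGGAAG, searched on both strands) in capitals:
Dusp6, chr10:99263151-99263230, plus strand: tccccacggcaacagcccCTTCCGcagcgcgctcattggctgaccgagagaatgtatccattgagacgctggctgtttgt
Spred1, chr2:117120991-117121070, plus strand: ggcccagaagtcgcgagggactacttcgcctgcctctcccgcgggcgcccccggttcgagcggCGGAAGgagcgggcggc
Spry2, chr14:105896820-105896899, minus strand: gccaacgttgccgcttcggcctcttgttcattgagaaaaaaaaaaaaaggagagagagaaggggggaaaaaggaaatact
The match starts 62 bases before the gene start in Dusp6, on the opposite strand, and 17 bases before it in Spred1, while the stretch of Spry2 holds none. Over the 250 bases before the start, 2 of these 7 genes held the letters (28.6%). The share was 25.3% of 809 genes called lower and 18.5% of 1040 called higher, against 24.5% of all 12433 tested genes with an entry. A match of letters is a description of the window and not a binding site.

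In the pluripotency network few naive genes were called, and 8 of 19 tested formative genes fell. Of 22 naive genes 17 had a change above 0, 3 rose (13.6%) and 2 fell (9.09%). The list median was 0.31 (0.37 and 0.35 on the slides of replicates 1 and 2). Tbx3, a T-box factor of naive cells, stood at 4.78 and 4.68 in 0h, against 3.25 and 3.09 in DMSO, and rose by 1.56 ± 0.37 (adjusted p = 0.023, 0.072 without the block). Dppa3 rose by 1.22 ± 0.29 and Tcf7l1, a repressor at Wnt targets, by 0.90 ± 0.20. Nanog was at 4.50 and 4.61 in 0h and at 3.42 and 2.98 in DMSO. The groups did not overlap, as in 48.3% of all tested genes, and the slides of replicates 1 and 2 gave 1.08 and 1.62. The change of 1.35 ± 0.75 was not called (adjusted p = 0.26). Its error comes from the fit over all 16 arrays, and the 24h arrays of Nanog read -1.75 and 1.58.

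Klf4 (0.84 ± 0.60), Esrrb (0.31 ± 0.37) and Klf2 (0.25 ± 0.24) were likewise not called. Gbx2, a homeobox gene placed in the naive list, went the other way. It had levels of -0.59 and -1.85 in 0h and of 2.08 and 1.1 in DMSO, and fell by 2.81 ± 0.20 (adjusted p = 0.00013, 0.074 without the block). None of the 5 naive calls was made without the block, and Gbx2 was the one that held with each array left out.

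Of 16 tested genes shared by naive and primed cells, 6 fell (37.5%) and 1 rose (6.25%), none called without the block. Pou5f1, the central pluripotency factor, was at 5.68 on both 0h arrays and at 6.09 and 6.00 in DMSO, a change of -0.36 ± 0.24 that was not called. Sox2, its partner, rose by 0.45 ± 0.12 (adjusted p = 0.037). Utf1, a chromatin-associated factor of stem cells, stood at 5.63 and 4.72 in 0h, against 6.98 and 6.64 in DMSO, and fell by 1.64 ± 0.20. Dppa4 and the RNA-binding gene Lin28b each fell by 0.89, and Tdgf1, a co-receptor of Nodal, fell by 0.69. Utf1, Dppa4 and Lin28b kept their call with each array left out.

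Of 19 formative and early epiblast genes 8 fell (42.1%) and none rose, against 6.62% of all tested genes lower. A change below 0 was seen in 17, and the median was -0.82 (-0.76 and -0.72 by slide). Pou3f1, a POU factor of the formative epiblast, had levels of 0.46 and 0.04 in 0h and of 2.68 and 2.88 in DMSO, and fell by 2.53 ± 0.32 (adjusted p = 0.0016), or 5.8-fold. Pim2, a survival kinase, was at -0.73 and -1.03 in 0h and at 1.73 and 1.71 in DMSO, and fell by 2.60 ± 0.37. Both were called without the block. Tcf15, a bHLH factor, fell by 1.35 ± 0.16 and Grhl2, an epithelial factor, by 1.54 ± 0.22. Wnt8a was not above background in 0h and was at least 3.7-fold lower. Otx2, a central factor of this state, had a change of -0.52 ± 0.16 (adjusted p = 0.062). Pou3f1, Pim2, Tcf15, Grhl2 and Dnmt3b were called whichever array was left out.

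The 3 genes for new DNA methylation were called lower with the block. In their list of methyltransferases and Tet enzymes 4 of 13 fell (30.8%) and none rose, against 6.62% and 8.35% of all tested genes. None of the 4 was called without the block. Dnmt3b stood at 5.59 and 4.73 in 0h, against 6.61 and 6.81 in DMSO, and fell by 1.55 ± 0.27 (adjusted p = 0.0063, 0.067 without the block). Its cofactor Dnmt3l had levels of 6.08 and 5.72 in 0h and of 7.03 and 6.93 in DMSO. It fell by 1.08 ± 0.22 (adjusted p = 0.013, 0.094 without the block). Dnmt3a fell by 0.48 ± 0.13 (adjusted p = 0.039, 0.11 without the block). With 1 array left out the change of Dnmt3l ran from -1.21 to -0.95 and that of Dnmt3a from -0.59 to -0.38. The maintenance enzyme Dnmt1 had -0.06, its partner Uhrf1 -0.05 and the demethylating enzymes Tet1 and Tet2 -0.21 and 0.22, none called. Tdg, a repair enzyme that completes demethylation, fell by 0.60 ± 0.11.

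**Figure D3:**
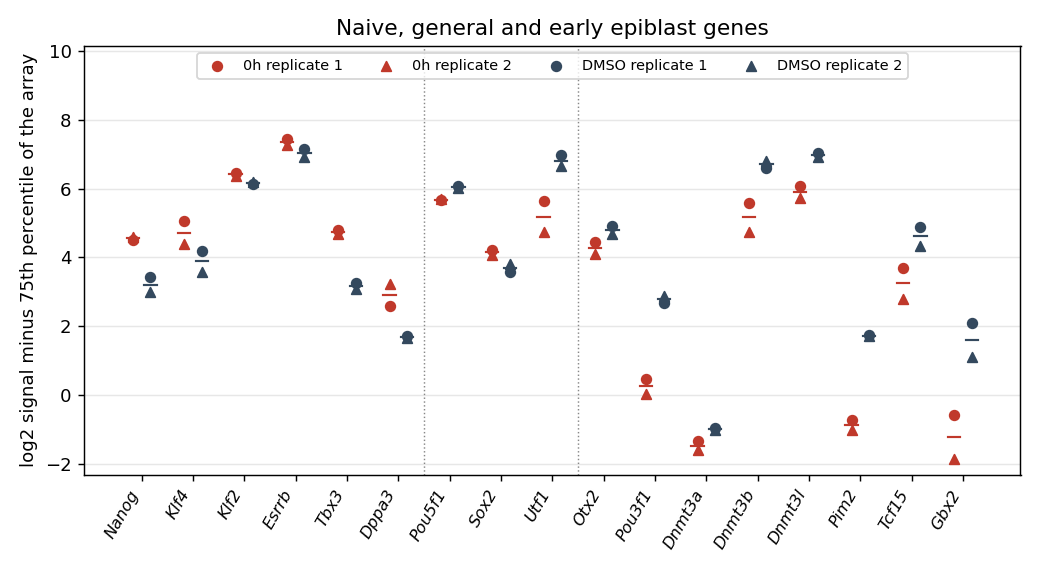
Level of each gene on each array (vertical axis, log2 signal minus the array's 75th percentile), 0h in red left of DMSO in dark blue, replicate 1 as circles, replicate 2 as triangles, group means as bars. Dotted lines part naive, general and early epiblast genes as drawn. Gbx2 is drawn in the last part but counted in the naive list, and Dnmt3l, also drawn there, is counted in the general list. Nanog and Tbx3 lie higher at 0h, while Pou3f1, Dnmt3b, Dnmt3l, Pim2 and Gbx2 lie lower.

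Some genes of extraembryonic lineages rose. Of 28 tested primitive endoderm genes 7 rose (4 of them also without the block) and 1 fell, against 8.35% of all tested genes higher, with a median of 0.52 (0.62 and 0.41 by slide). The members that rose include basement membrane and surface genes. Lama1, a laminin chain, had levels of 4.93 and 4.96 in 0h and of 3.10 and 3.57 in DMSO, and rose by 1.61 ± 0.18 (adjusted p = 0.00093). It was the member called with each array left out. The lineage's transcription factors did not pass the test. Gata4 had a change of 0.58 ± 0.53, Gata6 of -0.83 ± 0.40 and Sox17 of -0.17 ± 0.39. These errors come from the fit over all arrays of the series, not from 0h and DMSO alone. By slide Gata4 gave 0.65 and 0.50, and its 4h arrays read -2.60 and -0.40. Gata6 gave -0.79 and -0.88 by slide, and its 24h arrays read 1.49 and -0.15. The 0h and DMSO arrays did not overlap in Gata4 and Gata6, and overlapped in Sox17. The summed level of 8 fixed primitive endoderm markers, in units of the array's 75th percentile, was 31.4 and 32.2 in 0h and 9.21 and 12.5 in DMSO. Lama1 made up nearly all of it, and the other 7 markers summed to 0.960 and 1.03 in 0h and to 0.655 and 0.632 in DMSO. In cultures measured as a whole, more cells of a type and more RNA per cell cannot be told apart, here and for the lists that follow.

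Of 28 tested laminins, collagens and other matrix genes 10 rose (35.7%) and none fell, against 8.35% and 6.62% of all tested genes. Without the block 6 of them were also called, and the median was 0.44 (0.48 and 0.40 by slide). Lama1, Col4a1 and Col4a2 are members of the primitive endoderm list as well, so these results overlap. Nid1, which links laminin to collagen IV, stood at 4.59 and 5.01 in 0h, against 3.11 and 3.33 in DMSO, and rose by 1.58 ± 0.12. The collagen IV chains Col4a1 and Col4a2 rose by 1.24 ± 0.26 and 1.11 ± 0.25, and Col5a1 by 0.77 ± 0.11. Lama1, Nid1 and Col5a1 kept their call with each array left out. In the list of mesenchymal transition 5 of 16 rose (31.2%) and none fell. Of these, Zeb1, a repressor of epithelial genes, rose by 1.83 ± 0.42, and the protease inhibitors Timp2 by 1.59 ± 0.25 and Timp1 by 0.87 ± 0.11. Both inhibitors kept their call with each array left out. The summed level of 7 fibroblast markers was 3.11 and 3.04 in 0h and 4.52 and 5.76 in DMSO, most of it from Thy1, and Postn and Lum were below background on all 4 arrays. Without Thy1 the sum was 0.370 and 0.382 in 0h and 0.751 and 0.438 in DMSO. The summed level of 5 neural markers was 8.28 and 11.9 in 0h and 4.48 and 6.16 in DMSO, most of it from Tubb3, a neuronal tubulin. Without Tubb3 it was 0.540 and 0.749 in 0h and 0.524 and 0.769 in DMSO. The part of other cell types in the matrix result was not tested.

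Of 11 tested trophectoderm genes 3 rose (27.3%) and 1 fell (9.09%), none without the block. Gata2 stood at -1.05 and -0.60 in 0h, against -3.84 and -3.45 in DMSO, and rose by 2.82 ± 0.33 (adjusted p = 0.0011). Gata3 rose by 2.29 ± 0.39, with -2.90 and -1.54 in 0h and -5.19 and -3.84 in DMSO, where 1 array was well above background. Tfap2c, an AP-2 factor that germ cells and stem cells also express, rose by 2.15 ± 0.28, with 4.02 and 5.02 in 0h and 1.78 and 2.95 in DMSO. Ascl2, a trophoblast factor, fell by 1.18 ± 0.15. All 4 kept their call with each array left out. Cdx2 and Elf5, defining factors of the lineage, were below background on all 4 arrays, and the summed level of 6 fixed trophectoderm markers was 16.5 and 33.0 in 0h and 3.64 and 7.97 in DMSO. Tfap2c made up nearly all of this sum, 2 of the 6 markers were above background on all 4 arrays, and without Tfap2c the sum was 0.327 and 0.574 in 0h and 0.211 and 0.265 in DMSO.

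Receptor tyrosine kinases and ligands outside the FGF family rose where they were called. Of 22 tested 6 rose (27.3%) and none fell, 3 of them also without the block, with a median of 0.36. Igf1, an insulin-like growth factor, had levels of -2.17 and -0.86 in 0h and of -5.88 and -4.18 in DMSO, and rose by 3.51 ± 0.38 (adjusted p = 0.00079), or 11.4-fold, although 1 of the DMSO arrays was not well above background. It was the member called with each array left out. Its other tested probes gave changes of 2.76, which was called, and of 2.70 and 0.04, which were not, so the probes of Igf1 disagree. Kit, the stem cell factor receptor, stood at 2.84 and 3.20 in 0h, against 1.01 and 0.57 in DMSO, and rose by 2.23 ± 0.41. Its ligand Kitl rose by 0.71 ± 0.15, Pdgfc by 0.73 ± 0.14, Egf by 0.57 ± 0.16 and Erbb2 by 0.38 ± 0.09.

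In the BMP pathway 4 of 19 tested genes rose (21.1%) and 1 fell (5.26%), against 8.35% and 6.62% of all tested genes. The ligand Bmp4 was at 3.63 and 2.08 in 0h and at 4.73 and 4.15 in DMSO, and fell by 1.59 ± 0.21. The receptor Bmpr1b was below background in DMSO and at least 6.3-fold higher in 0h (adjusted p = 0.013). Id2 and Id4, inhibitors of differentiation that BMP is known to induce, rose by 1.23 ± 0.26 and 2.05 ± 0.45, while Id1 (-0.48) and Id3 (-0.88) were not called. Bmp4 held its call with each array left out. Among Wnt genes 3 of 35 rose (8.57%) and 4 fell (11.4%), against the same 8.35% and 6.62% of all tested genes. The ligand Wnt3 was at least 1.92-fold higher, and the target Sp5 and the receptor Fzd7 fell by 1.81 ± 0.34 and 0.94 ± 0.16. Of 18 tested genes of the LIF pathway 3 rose (16.7%) and 1 fell (5.56%). Stat5b (1.19 ± 0.14), Il6ra (1.24 ± 0.34) and Jak2 (0.52 ± 0.12) rose, and Gbx2, a homeobox gene downstream of LIF, fell by 2.81, while Stat3 (0.01) and Socs3 (-0.03) were not called. Wnt3, Fzd7, Stat5b and Gbx2 kept their call with each array left out.

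A few regulators of gastrulation rose steeply within a list that as a whole did not lean. Of 19 tested streak and mesendoderm genes 3 rose and 3 fell (15.8% each), with a median of -0.11. Gsc, the homeobox gene of the organiser, was at -2.68 and -1.29 in 0h and below background in DMSO, where it read -6.91 and -7.17, and was at least 7.64-fold higher (adjusted p = 0.0031). Hesx1, a homeobox repressor of the anterior epiblast, stood at -0.09 and 1.17 in 0h, against -3.96 and -2.89 in DMSO, and rose by 3.96 ± 0.31, or 15.6-fold. Gsc, Hesx1 and Wnt3 were called without the block and with each array left out. Eomes (-0.11) and Lhx1 (-0.18) were not called, and Mixl1 was not above background in any group.

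Germline genes moved in both directions, with 6 of 20 tested higher (30%) and 5 lower (25%), none called without the block. Rhox6 and Rhox9, neighbours in an X-linked homeobox cluster, rose by 1.66 ± 0.39 and 1.60 ± 0.36 and Stra8, a meiosis gene, by 1.34 ± 0.23, while Mael fell by 0.97 ± 0.25. The Rhox genes lie in a family of similar sequences whose probes could share signal. Of 19 tested imprinted genes 5 fell (26.3%) and 1 rose (5.26%). Snrpn had levels of 2.80 and 2.79 in 0h and of 3.82 and 3.72 in DMSO, and fell by 0.98 ± 0.08 (adjusted p = 0.00022). Magel2 fell by 1.56 ± 0.12, Peg10 by 1.5 ± 0.18 and Dlk1 by 1.03 ± 0.17, and Plagl1, a zinc finger gene, rose by 1.19 ± 0.21 at its brightest probe, by 1.07 at another, and had 0.07 and -0.09 at the remaining ones, which were not called. Snrpn, Magel2, Peg10 and Dlk1 kept their call with each array left out, and all of these but Peg10 were called without the block. The list's median of -0.04 is close to that of all genes.

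Interferon and antigen presentation genes also went both ways, with 5 of 22 higher (22.7%) and 7 lower (31.8%). Bst2, an antiviral membrane protein, stood at 2.70 and 2.16 in 0h, against 4.49 and 4.07 in DMSO, and fell by 1.85 ± 0.12 (adjusted p = 8.7e-05). Ifitm1 was at 7.31 and 7.4 in 0h and at 6.25 and 6.12 in DMSO, and rose by 1.17 ± 0.15. Both were called without the block and with each array left out. H2-K1, a class I antigen presentation gene, fell by 0.83 ± 0.12 and kept its call with each array left out, but was not called without the block (adjusted p = 0.27).

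Cell cycle genes gave 4 higher and 4 lower of 23 (17.4% each). Cdkn1b, the inhibitor p27 of cyclin-dependent kinases, was at 3.0 and 2.97 in 0h and at 2.16 on both DMSO arrays, and rose by 0.83 ± 0.10 (adjusted p = 0.0014). It was called without the block and with each array left out. Ccnd2 and Cdk6, which drive the G1 phase, fell by 1.52 ± 0.29 and 1.59 ± 0.26. Of 23 ribosome biogenesis genes 5 fell (21.7%) and none rose, 21 had a change below 0, and the median was -0.28 (-0.32 and -0.24 by slide). The largest fall among these was that of Rrp12, by 0.78 ± 0.19, followed by Ncl, which encodes nucleolin, by 0.60 ± 0.14. None of the 5 was called without the block, and none kept its call in all 4 fits with an array left out. Neither DNA replication and mitosis (21 tested) nor heat shock (12) nor the unfolded protein response (23) had a called member. The same was true of the endothelial and blood list (10).

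**Figure D4:**
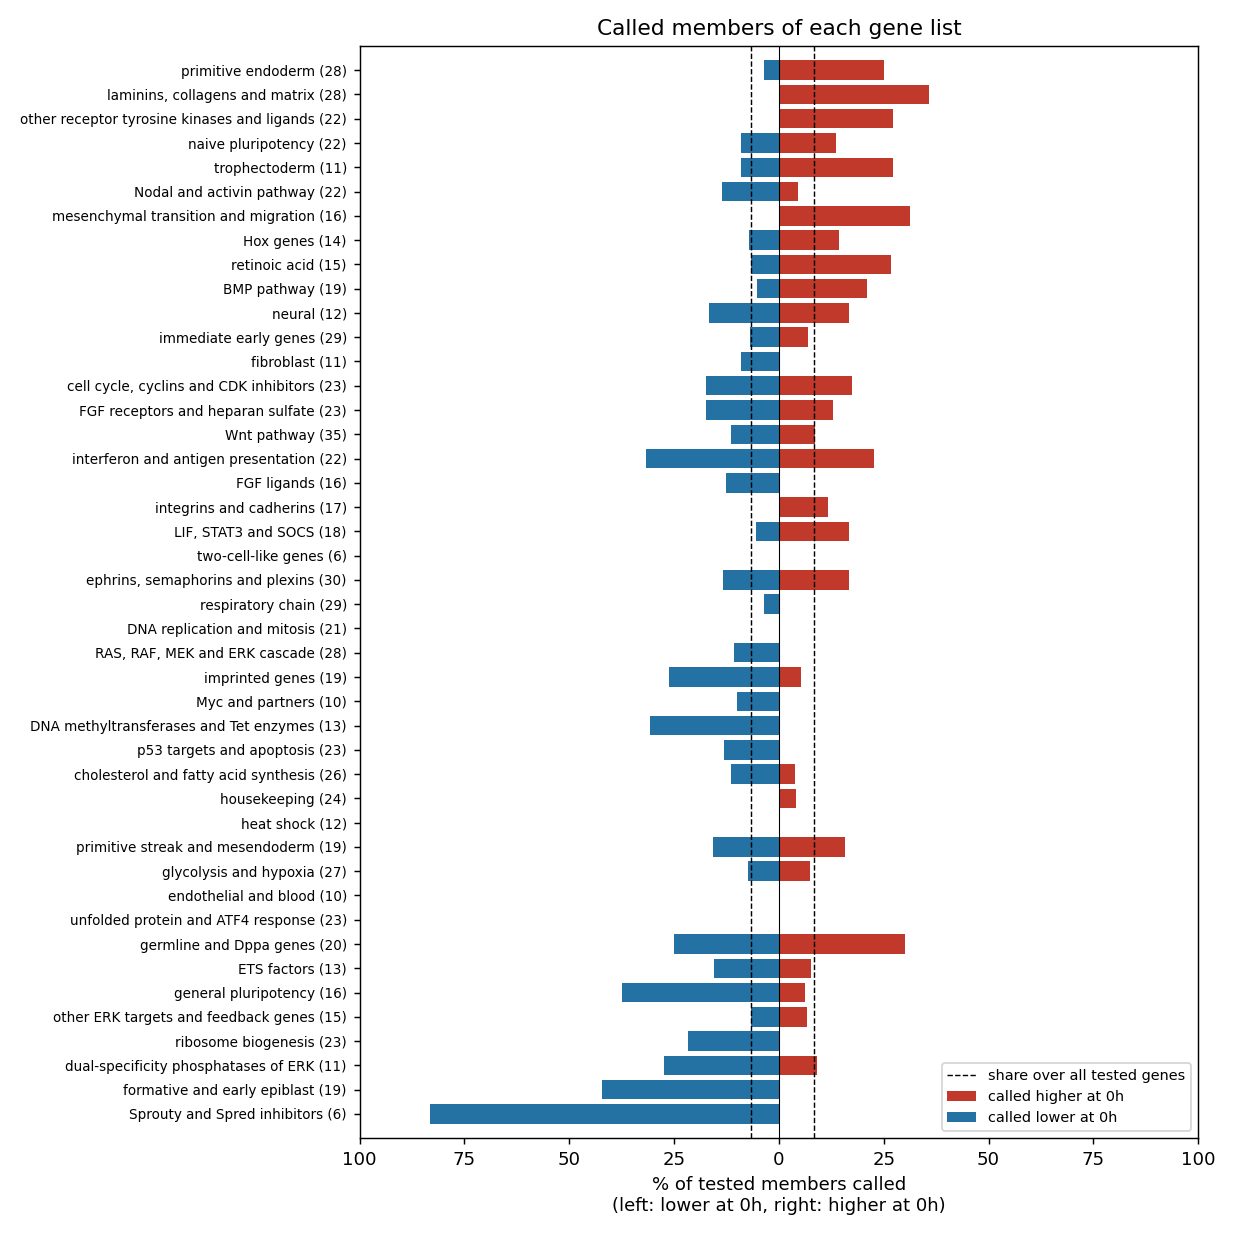
Percent of the tested members of each gene list called lower (blue, to the left) and higher (red, to the right) at 0h, with the number tested in brackets and the lists ordered by their median change. Dashed lines mark the shares over all tested genes, 6.62% lower and 8.35% higher. Sprouty and Spred inhibitors and formative genes reach furthest to the left, matrix genes furthest to the right.

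The largest rises among called genes above background on all 4 arrays were not confined to the lists. Calcoco2, an autophagy receptor, stood at 3.13 and 4.62 in 0h, against -0.66 and -0.15 in DMSO, and rose by 4.28 ± 0.38 (adjusted p = 0.00034), or 19.5-fold. Hhip, an antagonist of Hedgehog ligands, was at 0.61 and 0.50 in 0h and at -3.54 and -3.19 in DMSO, and rose by 3.92 ± 0.48. Pdlim4, a cytoskeletal adaptor, rose by 3.91 ± 0.34 and Pga5, a pepsinogen, by 3.47 ± 0.36. Padi2, which converts arginine to citrulline in proteins, rose by 3.11 ± 0.23, the ETS-family factor Spic by 2.99 ± 0.40 and the integrin chain Itgb3 by 2.77 ± 0.17. In all 7 the lower 0h array lay above the higher DMSO array by more than 2 log2 units. This gap was less than 2 in Ly6c1, Gpat3 and Wfdc2, which are also among the 15 largest rises. The genes were picked as the largest changes on these same arrays, so a wide gap follows from that choice. Hhip, Pga5, Padi2, Calcoco2 and Itgb3 were called without the block, while Pdlim4 (adjusted p = 0.056) and Spic (adjusted p = 0.11) were not.

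The largest falls outside the feedback genes included several developmental regulators. Wt1, a zinc finger factor, had levels of -2.24 and -2.66 in 0h and of 1.02 and 0.76 in DMSO, and fell by 3.34 ± 0.19 (adjusted p = 6.2e-05), or 10.1-fold. Vrtn fell by 3.33 ± 0.54 and Zfp608 by 2.95 ± 0.33. Hs6st2, a heparan sulfate sulfotransferase, stood at -2.50 and -2.61 in 0h, against 0.11 and 0.48 in DMSO, and fell by 2.85 ± 0.20. Enpp2, which makes lysophosphatidic acid, fell by 2.78 ± 0.29 and Nlrc4, an inflammasome component, by 2.77 ± 0.18. All 6 kept their call with each array left out, and Wt1, Vrtn, Zfp608 and Hs6st2 were called without the block.

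**Figure D5:**
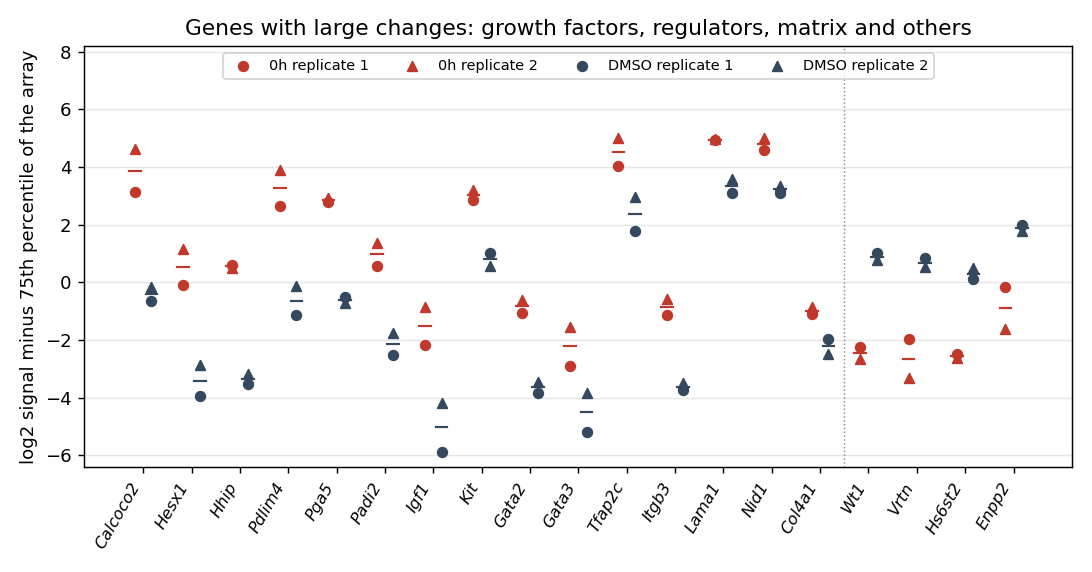
Level of genes with large changes on each array (vertical axis, log2 signal minus the array's 75th percentile), 0h in red left of DMSO in dark blue, replicate 1 as circles, replicate 2 as triangles, group means as bars. Genes left of the dotted line rose and those right of it fell. For each gene shown the 0h arrays lie wholly above or below the DMSO arrays, as for 48.3% of all tested genes.

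Some called genes were above background in 1 group only. Of the 2344, 69 were below background on both DMSO arrays, 28 on both 0h arrays and 4 on all 4 arrays. The largest bounds upward belonged to Lrtm2 (at least 9.36-fold higher), Gsc, Bmpr1b and Lpar3, a receptor of lysophosphatidic acid (at least 5.89-fold higher). Downward they belonged to Slc9a7, a sodium and proton exchanger (at least 7.32-fold lower), Prss44 (at least 6.27-fold) and Nt5e, which makes adenosine at the cell surface (at least 5.23-fold). Lrtm2 and Bmpr1b lost their call whichever array was left out, while Lpar3, Slc9a7, Prss44 and Nt5e kept theirs.

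The levels with the inhibitor can be set beside those after brief 4OHT, where PD173074 was still present. Spry4 had a mean of -3.11 at 30m and -1.30 at 1h, and Etv4 of 1.65 and 2.07, against DMSO arrays of 0.27 and 1.07 for Spry4 and of 4.93 and 4.68 for Etv4. Pou3f1 had means of 0.19 and 0.07, below both its DMSO arrays. Nanog had means of 4.62 and 4.49, above both of its DMSO arrays. Hesx1 had means of 0.43 and 0.22, also above them. These are 4 further arrays of cells with the inhibitor, and they are given as levels only.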

How the data were processed

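Per the labels' protocols, total RNA was extracted, amplified and labelled. Per the file headers, it was hybridised in 1 colour to Agilent mouse arrays read with Feature Extraction 11.0.1.1, and the deposited intensity of each spot was corrected for background by the scanner software. The deposited value table holds the same intensity, rounded and linear. Each scanner file matched 1 of its columns at 100% of spots (tolerance 0.6%), and the sample names of that table were used. No further processing by the authors is given in the sources used here.

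Control spots and flagged outlier spots were left out, spots of a probe were averaged, and log2 values of the deposited intensity were scaled to each array's 75th percentile. Probes were named through transcript accessions in RefSeq tables of GRCm38.p6, used for names and promoters only: of 55681 probes 27656 matched 1 gene, 28025 none and 0 several, giving 20972 genes. The probe with the highest mean signal stood for a gene. Of 604 called genes with another tested probe, 286 had another probe called the same way, and 3 had one called the opposite way. Calls thus often rest on 1 probe. Testing required that probe to exceed background clearly on the 2 arrays of some group among the 8 (15660 genes). A bound ("at least") sets the bright group's mean against the lowest signal well above background, or the probe's own if higher.

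Limma 3.58.1 (R 4.3.3) fitted 8 group means and the replicate number over all 16 arrays (7 residual degrees of freedom), with Benjamini-Hochberg adjustment over all tested genes. The number of arrays limits the precision. The replicate number is the slide, which holds 1 array of every group. As a check of the pairing, deviations of same-numbered arrays from their group means correlated at 0.329 to 0.659 in all 28 pairs of groups, and at 0.546 for 0h with DMSO. On simulated data with 200 changed genes of 15660, the fit of 0h vs DMSO recovered 74% of changes of 1 and 93% of changes of 2 (log2), and called 10 unchanged genes.

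The comparison, its blocked design, the gene lists and the rule for named genes were chosen with earlier results of these data known, including that the block raises the number of calls. Named genes were a set of pathway and lineage genes, the 15 largest rises and falls above background on all 4 arrays, the 8 largest bounds each way and up to 6 called members of each list; other list members are named as members. Some genes are counted in their lists but not reported here. Alternatives covered the block, scaling, background correction, value source, filters, probe choice, array identity, arrays in the fit and each array left out.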

Additional observations from a re-analysis of the deposited data

Results flagged for a closer look

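Among 14510 tested probes that carry no gene name here, 121 were called higher at 0h and 268 lower (2.68% called in all, limma with the replicate block and adjustment over these probes). Such probes stood outside the comparisons of named genes, and a signal among them is the reason for giving them. Of the 8023 that the array names by intergenic coordinates, 46 were higher and 152 lower.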

How the results depend on the processing

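The number of called genes depended on the block. No replicate block gave 548 called genes, 348 higher and 200 lower, in place of 2344, 1307 and 1037. Directions cannot change under this setting, because each slide holds 1 array of every group. Over the 4 arrays of 0h and DMSO alone, with the replicate block, 1142 were called (743 higher, 399 lower). Median centring gave 685 lower in place of 1037. A minimum of 2-fold left 747 (464 higher, 283 lower). Leaving out 1 array gave 708 to 1321 called genes, 398 to 676 higher and 310 to 646 lower. With samples as attached to the scanner files, 6 genes were called (6 higher, 0 lower), 387 had an unadjusted limma p below 0.05, and 2175 of the 2344 genes kept their direction. Quantile normalization, normexp background correction, the value table, both filters and the mean of all probes kept the 3 counts within 1.5 times. The cause of these shifts was not tested.

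Of 206 named genes, 88 kept their side of the threshold without the block and 192 with median centring. With samples as attached to the scanner files the sign turned for 21 of them: Spred1 (0.12), Dusp5 (0.59), Etv5 (0.025), Phlda1 (0.80), Fgfr1 (-0.020), Fgf4 (-0.50), Fgf5 (0.018), Klf2 (-0.036), Esrrb (-0.011), Cdx2 (1.35), St8sia4 (0.55), Platr8 (0.15), Ccdc3 (0.012), Bmp4 (0.14), Hs6st1 (-0.032), Sp5 (0.16), Ccnd2 (0.53), Trib1 (0.47), Ddx58 (0.16), Mesp1 (0.32) and Rarg (0.041). Normexp turned Fos (-0.095), Brachyury (T, -0.14), Lama4 (-0.090) and Egf (-0.054), and the mean of all probes turned Sox17 (0.012). With 1 array left out Cdx2 ran from -0.99 to 0.33, Fos from -0.37 to 0.48 and Brachyury from -0.12 to 0.64. List medians near 0 changed sign more readily: 36 of 44 kept it with median centring, 41 with quantile normalization and 35 with normexp.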

Other observations

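Several called probes lie in regions that the array names by mm9 coordinates, without a gene symbol. A pair of probes to the forward strand of chr6:52046805-52072744 read -3.25 and -3.97, and -3.32 and -3.88, on the 0h arrays, against -1.20 and -1.25, and -1.1 and -1.41, on the DMSO arrays. They fell by 2.38 ± 0.25 and 2.34 ± 0.28 on the log2 scale (limma adjusted p = 0.0033 and 0.0044). A probe to the reverse strand of chr4:129380903-129390686 read -3.46 and -3.47 in 0h and -1.33 and -1.33 in DMSO, and fell by 2.13 ± 0.33. In the other direction, a pair of probes to the forward strand of chr11:119254413-119296960 rose by 1.74 ± 0.38 and 1.52 ± 0.29. A single probe to the forward strand of chr6:57583950-57624216 read -1.81 and -1.41 in 0h and -3.18 and -3.56 in DMSO, and rose by 1.76 ± 0.39 (adjusted p = 0.049). These probes were picked as the largest changes of their kind. The 2 probes of a pair carry the same region name and were measured on the same arrays, so they do not repeat the experiment.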
